A study of Mus musculus with 4 samples.

Results

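PRC1.6 is a Polycomb repressor that keeps germline and meiotic genes silent, and the 10 genes described here encode its subunits: Mga, Max, E2f6, L3mbtl2, Pcgf6, Rnf2, Ring1, Tfdp1, Wdr5 and Cbx3. They were taken by gene name as subunits of the complex, with earlier results of these data known though by no rule on measured values, and are 10 of the 55421 genes in the count table. The 4 RNA-seq libraries came from spermatogonial stem cell cultures of CD1 mice, set up from the testes of young pups and kept on a layer of irradiated mouse embryonic fibroblasts. All cultures were grown with N2 supplement, bFGF and GDNF, and the labels name no mutant allele or transgene. In 2 libraries (Veh) the cells received vehicle in complete medium. In the other 2 libraries (NRRA) most of the medium was replaced with Earle's balanced salt solution to restrict nutrients, and retinoic acid was added, for 2 days. By the study's recipe, this replacement also diluted the N2 supplement, bFGF and GDNF of the complete medium. The comparison asks how the subunit genes stood when the cultures were pushed towards meiotic initiation. The labels call the libraries of a group replicates, and the study's methods describe them as independent biological replicates. Nutrient restriction, the dilution of bFGF, GDNF and N2 that came with it, and retinoic acid cannot be told apart because they were given together.

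Polycomb repressive complexes of the PRC1 kind carry a RING1 protein (RING1 or RNF2) that ubiquitinates histone H2A, paired with 1 of several PCGF proteins that decides the type of complex. PRC1.6 is the type built on PCGF6. It is brought to promoters by DNA-binding subunits: MGA, a large scaffold that pairs with MAX and binds the E-box CACGTG, and E2F6, a repressive E2F that pairs with a DP protein such as TFDP1 and binds E2F sites with the core GCGGGA. L3MBTL2 binds chromatin through malignant brain tumour repeats, CBX3 (HP1 gamma) is a heterochromatin protein that binds methylated histone H3, and WDR5 is a scaffold shared with the histone H3 lysine 4 methyltransferases. In mouse embryonic stem cells and somatic cells, loss of MGA, MAX, E2F6 or PCGF6 is known to release germline genes such as Ddx4, Slc25a31 and Stag3.

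The promoter windows of 4 germline genes show the letters by which MGA with MAX and E2F6 are known to find their targets. Each window is the RefSeq sequence on GRCm38.p6 from 250 bases before to 50 bases after the gene's start, written 5′ to 3′ on the gene's strand, and the capitals mark each E-box and each E2F core on either strand (an E2F core on the other strand reads TCCCGC). The 4 were picked from the 6 of 17 listed germline genes that hold both motifs in 1 window, and the other 11, Stra8 among them, do not. Within those 6, Stag3 and Hormad1 are shown because they were higher in NRRA, Slc25a31 because it was not called, and Mael because it was lower. The Stag3 window is chr5:138280259-138280558 (+ strand), the Hormad1 window chr3:95559427-95559726 (+), the Slc25a31 window chr3:40708621-40708920 (+) and the Mael window chr1:166238695-166238994 (- strand).
Stag3: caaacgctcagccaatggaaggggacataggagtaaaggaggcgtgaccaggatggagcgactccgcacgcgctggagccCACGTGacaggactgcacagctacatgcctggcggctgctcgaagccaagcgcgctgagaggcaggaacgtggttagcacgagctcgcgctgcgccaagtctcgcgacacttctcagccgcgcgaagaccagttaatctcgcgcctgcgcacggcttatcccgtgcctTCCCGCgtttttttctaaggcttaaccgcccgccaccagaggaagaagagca
Hormad1: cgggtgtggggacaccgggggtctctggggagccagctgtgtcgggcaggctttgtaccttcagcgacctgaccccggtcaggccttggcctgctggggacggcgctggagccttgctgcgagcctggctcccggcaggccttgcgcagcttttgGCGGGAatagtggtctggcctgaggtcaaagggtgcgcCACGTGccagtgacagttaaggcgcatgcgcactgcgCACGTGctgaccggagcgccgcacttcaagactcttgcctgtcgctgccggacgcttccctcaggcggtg
Slc25a31: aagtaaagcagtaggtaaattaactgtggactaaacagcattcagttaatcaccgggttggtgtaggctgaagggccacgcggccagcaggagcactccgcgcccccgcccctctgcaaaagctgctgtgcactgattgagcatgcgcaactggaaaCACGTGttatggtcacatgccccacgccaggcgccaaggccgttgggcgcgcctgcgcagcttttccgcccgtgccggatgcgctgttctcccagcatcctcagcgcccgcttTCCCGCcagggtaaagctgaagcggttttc
Mael: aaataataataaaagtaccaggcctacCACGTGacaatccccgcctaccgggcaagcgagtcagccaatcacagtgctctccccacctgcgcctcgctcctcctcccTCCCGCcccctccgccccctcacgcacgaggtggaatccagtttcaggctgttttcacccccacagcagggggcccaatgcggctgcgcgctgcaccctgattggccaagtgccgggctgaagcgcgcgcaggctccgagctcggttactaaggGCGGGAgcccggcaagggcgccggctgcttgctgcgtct
By this choice all 4 windows hold an E-box and an E2F core, and they differed in the place of the letters. Counted from the start of the gene, the E-box of Stag3 began at base -170 and its E2F core at -2, and the Slc25a31 letters began at -93 and 20. The E-box stood in 7.15% of all 32851 promoter windows of this length, the E2F core in 20.0%, and the pair in 1.99%. A match is a description of the letters and not a measured binding site.

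The windows of 5 of the subunit genes are given because these are the members with the largest changes, 3 lower and 2 higher in NRRA. They are chr12:76962199-76962498 (-) for Max, chr12:16810715-16811014 (+) for E2f6, chr19:47050857-47051156 (-) for Pcgf6, chr1:151500942-151501241 (-) for Rnf2 and chr17:34024631-34024930 (-) for Ring1, with capitals as above.
Max: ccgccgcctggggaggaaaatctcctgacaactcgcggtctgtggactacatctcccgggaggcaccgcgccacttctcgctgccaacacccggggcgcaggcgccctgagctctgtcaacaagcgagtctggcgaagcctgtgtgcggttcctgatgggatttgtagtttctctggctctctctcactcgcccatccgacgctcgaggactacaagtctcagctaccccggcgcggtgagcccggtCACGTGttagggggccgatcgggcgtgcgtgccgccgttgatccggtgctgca
E2f6: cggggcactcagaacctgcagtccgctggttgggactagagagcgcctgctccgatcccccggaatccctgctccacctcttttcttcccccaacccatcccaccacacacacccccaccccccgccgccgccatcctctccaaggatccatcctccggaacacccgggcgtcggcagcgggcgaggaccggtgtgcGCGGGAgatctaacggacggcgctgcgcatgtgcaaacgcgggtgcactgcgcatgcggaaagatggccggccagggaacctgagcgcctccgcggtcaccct
Pcgf6: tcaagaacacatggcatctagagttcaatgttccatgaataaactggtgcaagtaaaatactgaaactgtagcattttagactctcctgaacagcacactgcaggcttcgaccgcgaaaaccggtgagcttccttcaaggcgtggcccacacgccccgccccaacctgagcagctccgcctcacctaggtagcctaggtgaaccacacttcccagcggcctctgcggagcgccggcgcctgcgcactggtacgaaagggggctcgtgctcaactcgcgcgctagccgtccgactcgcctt
Rnf2: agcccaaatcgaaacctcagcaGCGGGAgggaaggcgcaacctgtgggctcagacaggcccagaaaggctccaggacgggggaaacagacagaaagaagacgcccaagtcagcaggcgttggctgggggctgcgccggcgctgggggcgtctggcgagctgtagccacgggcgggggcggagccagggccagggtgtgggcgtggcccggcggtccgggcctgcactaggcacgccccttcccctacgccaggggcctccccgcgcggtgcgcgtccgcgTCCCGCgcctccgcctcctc
Ring1: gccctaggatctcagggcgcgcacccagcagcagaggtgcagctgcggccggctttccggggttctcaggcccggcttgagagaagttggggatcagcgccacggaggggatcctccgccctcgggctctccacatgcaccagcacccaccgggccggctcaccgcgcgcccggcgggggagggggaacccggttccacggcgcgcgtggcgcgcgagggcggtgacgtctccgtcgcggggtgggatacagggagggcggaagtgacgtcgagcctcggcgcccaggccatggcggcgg
Max carried an E-box that began at base -3, and E2f6 an E2F core at -53. Rnf2 carried E2F cores at -228 and 30, whereas the Pcgf6 and Ring1 windows held neither motif. All 10 subunit genes had a promoter window (12 windows in all). An E-box stood in 2 of the 10 genes (Max and Tfdp1) and an E2F core in 4 (E2f6, Rnf2, Tfdp1 and Wdr5), and Tfdp1 alone had the pair in 1 window. Falling, rising and uncalled genes thus all occurred with and without the E2F core.

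All 10 subunit genes were expressed in every library and passed the filter on low counts. Levels are given as CPM, the count of a gene divided by the library's total and set to a common size after scaling by edgeR's TMM factors, and changes as log2 fold changes of NRRA over Veh, with p-values from edgeR's quasi-likelihood test adjusted over all 20232 genes tested (Benjamini-Hochberg, threshold 0.05). By this test 2 members rose, 6 fell and 2 were not called. The 8 of 10 called stand beside a background of 56.4% of all tested genes called, with 27.9% of tested genes higher and 28.4% lower. The treatment changed so many genes that a call by itself says little about the members. Of the 8 called members, 5 changed by at least 1.3-fold (Max, E2f6, Pcgf6, Rnf2 and Ring1), and 34.7% of all tested genes were both called and changed by at least that much. None of the members reached 2-fold, and 13.3% of tested genes were both called and changed by at least 2-fold. For comparison, the typical tested gene had an absolute log2 fold change of 0.33 (median). The members had a median change of -0.11 on the log2 scale, beside 0.0003 for the genes tested as a whole.

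Veh libraries were 28022265 and 30715160 counts deep, those of NRRA reached 31604769 and 29214798, and replicates were close, with a common biological coefficient of variation of 2.62%. Stra8, the retinoic acid target needed for meiotic initiation, checked the labels: it stood at 9.61 and 10.1 CPM in Veh and at 1862 and 1851 CPM in NRRA. Of 8 germ cell markers, all expressed in the 4 libraries, 4 were higher in NRRA, 3 lower and 1 not called. Dnd1 fell least of the 3 (-0.094, edgeR adjusted p = 0.0491). Only 2 were lower with DESeq2, with its size factors, with library size only, with no filter or without robust estimation. The marker counts here stand beside 27.9% of all tested genes higher and 28.4% lower. Ddx4 (267 to 278 CPM) and Dazl (623 to 748 CPM) were high throughout, Sall4 (0.84) and Tex15 (0.66) rose most, and Zbtb16 and Gfra1, markers of undifferentiated spermatogonia, fell to 18.5% and 38.3% of Veh (edgeR, log2 fold changes -2.43 and -1.38). Of 16 fibroblast markers of the feeder layer, 13 were lower, 2 higher (Pdgfra, 0.98, and Col3a1, 0.61) and 1 not called. None was at 0, and their summed share of counts was 1.12 to 1.13% in Veh and 0.877 to 0.903% in NRRA. The sum was 11650 and 11520 CPM in Veh and 8750 and 8502 CPM in NRRA. Fn1 alone had 6136 and 6080 CPM of it in Veh and 4357 and 4347 CPM in NRRA. Of 9 Sertoli and Leydig markers, 5 could be tested (1 higher, 1 lower, 3 not called). The higher call (Star) was lost with DESeq2. The list took 0.00406 to 0.00442% of counts in Veh and 0.00260 to 0.00262% in NRRA, with Amh, Hsd3b1 and Insl3 at 0 to 0.184 CPM. In the same list Sox9 fell from 27.1 and 29.3 CPM in Veh to 9.32 and 9.42 CPM in NRRA, Wt1 had 5.80 to 7.82 CPM and Star 6.96 to 8.77 CPM. The part of these shifts in the member results was not tested, and in bulk RNA fewer cells of a type and less RNA per cell cannot be told apart.

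**Figure D1:**
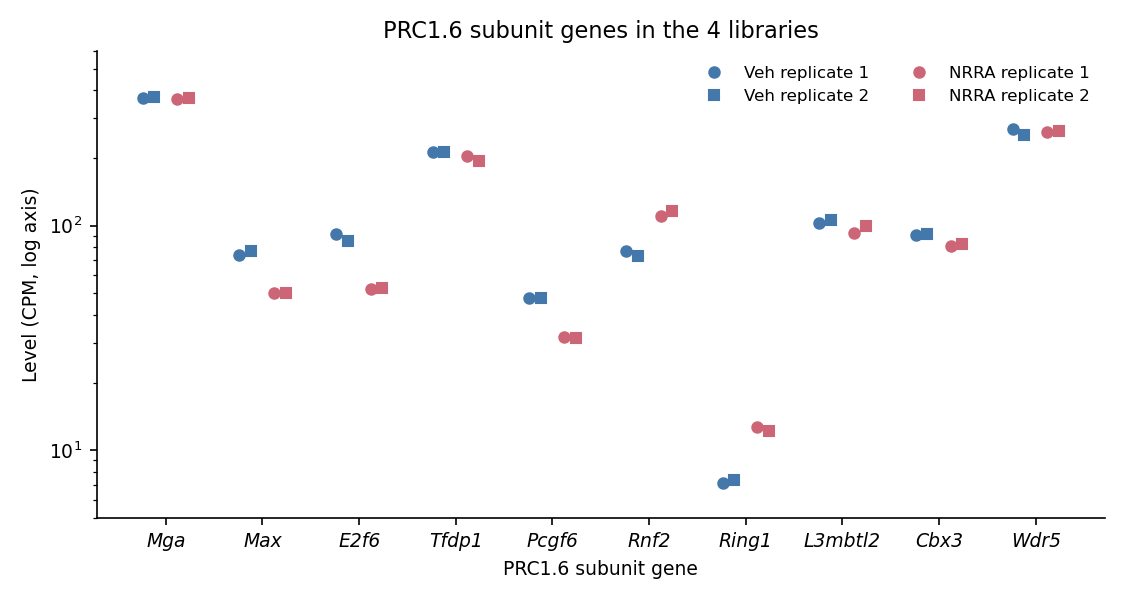
Level of each PRC1.6 subunit gene in each library, as CPM on a log axis, with 1 point per library (circles, replicate 1, and squares, replicate 2). Max, E2f6 and Pcgf6 lie lower in both NRRA libraries, Rnf2 and Ring1 lie higher, and Mga and Wdr5 stay at about the same level.

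Mga, the scaffold that holds the complex together and binds DNA with MAX, was the most counted member and did not pass the test. It lies at chr2:119897228-119969581 (GRCm38, + strand) and had 371 and 375 CPM in Veh and 366 and 369 CPM in NRRA. The 4 values were close, with both NRRA libraries just under both Veh libraries. The log2 fold change was -0.022 (95% interval -0.074 to 0.030, adjusted p = 0.488). With scaling by library size only, which raises all genes by a median of 0.09, the sign turned and Mga was called higher at 0.068, so the direction of so small a difference depends on the scaling.

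Max, the obligate partner of MGA and also of the MYC and MXD proteins, fell to 66.4% of its Veh level. This gene (chr12:76937269-76962201, - strand) had 74.0 and 77.0 CPM in Veh and 50.1 and 50.2 CPM in NRRA. The groups lay far apart relative to the spread within them. Its log2 fold change was -0.59 ± 0.047 (SE, n = 2 libraries a group, edgeR adjusted p = 3.52e-11). Per 100 counts of Mga in the same library, which needs no scaling between libraries, Max gave 19.9 and 20.5 counts in Veh but only 13.7 and 13.6 under NRRA.

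E2f6, the repressive E2F of the complex, showed the deepest fall among the members. At chr12:16810963-16839742 (+ strand), it had 91.6 and 85.4 CPM in Veh and 52.2 and 52.5 CPM in NRRA. Neither NRRA library came near the lower Veh library. Its level in NRRA was 59.2% of that in Veh (log2 fold change -0.76 ± 0.047, edgeR adjusted p = 2.14e-13), and 21.1% of all tested genes had a larger absolute change. Per 100 Mga counts, E2f6 went from 24.7 and 22.8 to 14.3 and 14.2.

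Tfdp1, the DP protein that pairs with E2F6 and with the activating E2Fs, moved little. The gene (chr8:13338751-13378448, + strand) had 212 and 212 CPM in Veh and 204 and 194 CPM in NRRA. Both NRRA libraries were lower, by less than 10%. The fall passed the test (log2 fold change -0.088 ± 0.031, edgeR adjusted p = 0.0168) but was lost with DESeq2 and without NRRA replicate 2, and with library size only the change was 0.0019. Of the gene's longest transcript, 43.2% is nearly identical to 1 other annotated gene. Per 100 Mga counts, Tfdp1 had 57.0 and 56.4 in Veh and 55.6 and 52.6 in NRRA.

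Among the DNA-binding members, Max and E2f6 therefore fell, and their partners Mga and Tfdp1 stayed within 10% of the Veh level. The ratio to Mga in NRRA over that in Veh was 0.675 for Max, 0.601 for E2f6 and 0.955 for Tfdp1.

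Pcgf6, the subunit that defines PRC1.6 among the PRC1 complexes, fell to 66.8% of its Veh level. It lies at chr19:47033617-47050906 (- strand) and had 47.7 and 47.6 CPM in Veh and 31.9 and 31.7 CPM in NRRA. The replicates of each group were nearly equal. The log2 fold change was -0.58 ± 0.057 (edgeR adjusted p = 1.67e-09), and the ratio to Mga fell to 0.678 of its Veh value.

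Rnf2, which encodes RNF2 (RING1B), the main ubiquitin ligase of PRC1, rose to 150% of its Veh level. The gene (chr1:151458004-151500955, - strand) had 77.2 and 73.4 CPM in Veh and 110 and 116 CPM in NRRA. Both NRRA libraries stood well above both Veh libraries. On the log2 scale the change was 0.59 ± 0.041 (edgeR adjusted p = 3.21e-12).

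Ring1, the paralogous ligase, was the least counted member and rose by the largest ratio, to 171.5% of Veh. This gene (chr17:34020792-34024680, - strand) had 194 and 219 counts in the Veh libraries against 415 and 366 under NRRA, or 7.14 and 7.35 CPM against 12.7 and 12.1 CPM. The groups did not overlap despite the low counts. On the log2 scale the change was 0.78 ± 0.11 (95% interval 0.55 to 1.01, edgeR adjusted p = 1.09e-06).

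The catalytic pair thus rose while the PCGF subunit that defines the complex fell. RNF2 and RING1 serve all PRC1 types, and counts of whole genes do not show in which complex a protein is used. Within each library, the log2 ratio of Ring1 to Rnf2 was -3.43 and -3.32 in Veh and -3.12 and -3.26 in NRRA. The difference of 0.19 gave p = 0.333 in an exact two-sided permutation test, the smallest value that 2 libraries against 2 allow whatever the values, so this test could not separate the groups.

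L3mbtl2, the chromatin reader, fell slightly. At chr15:81663889-81688315 (+ strand) it had 103 and 106 CPM in Veh and 92.4 and 99.2 CPM in NRRA, and 17.2% of its exon sequence overlaps Chadl on the opposite strand. The gap between the groups was narrower than the gap within NRRA. This gave a log2 fold change of -0.13 ± 0.041 (edgeR adjusted p = 0.0106), and the call was lost with DESeq2, without Veh replicate 2, without NRRA replicate 1 and with library size only.

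Cbx3, the heterochromatin protein of the complex, fell to 90.1% of its Veh level. The gene (chr6:51470360-51483704, + strand) had 90.5 and 91.3 CPM in Veh and 81.0 and 82.8 CPM in NRRA. The groups were clearly apart though the difference was small. Its log2 fold change was -0.15 ± 0.040 (edgeR adjusted p = 0.00236), and with library size only it was -0.06 and not called.

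Wdr5, the scaffold shared with the H3K4 methyltransferases, was not called. It lies at chr2:27515157-27536535 (+ strand) and had 270 and 254 CPM in Veh and 260 and 264 CPM in NRRA. Its groups overlapped, whereas those of the other 9 members did not, beside 76.7% of all tested genes whose groups did not overlap. The log2 fold change was 0.0023 (95% interval -0.060 to 0.065, adjusted p = 0.958), and its sign turned when Veh replicate 2 or NRRA replicate 2 was left out. With library size only, Wdr5 was called higher at 0.092.

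**Figure D2:**
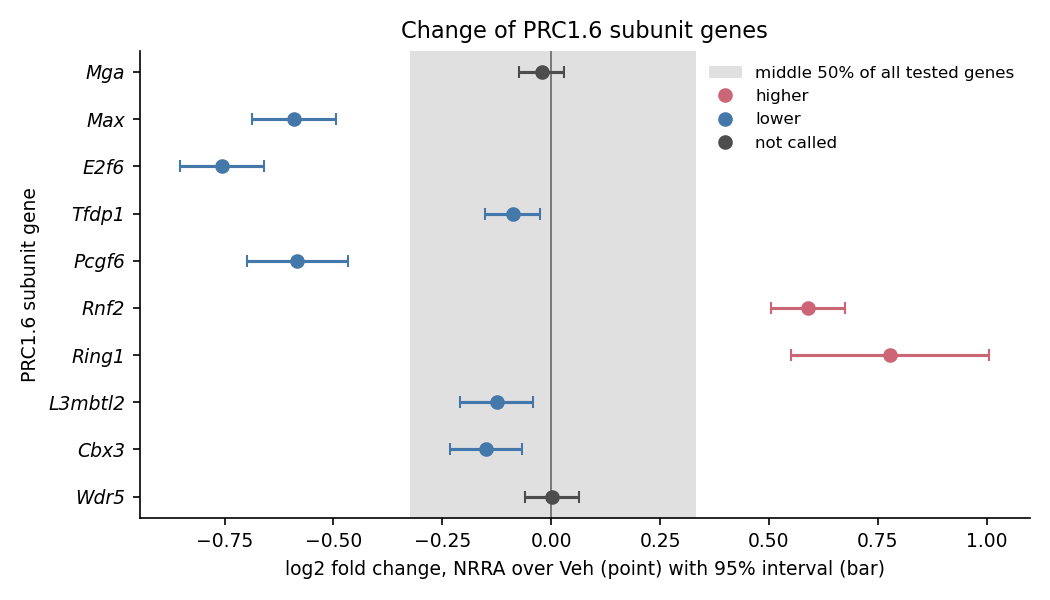
Change of each subunit gene, with the log2 fold change of NRRA over Veh on the horizontal axis and a bar for its 95% interval. Max, E2f6 and Pcgf6 lie left of the grey band that holds the middle 50% of all tested genes (-0.32 to 0.33), Rnf2 and Ring1 lie right of it, and the other 5 members lie inside it.

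Levels of different genes can be set side by side only per length, so CPM were divided by the kilobases of each gene's exons. In Veh the order was Wdr5 (72.9 CPM per kb), Tfdp1 (57.7), Mga (24.3), Max (20.98), Rnf2 (18.2), L3mbtl2 (17.6), E2f6 (15.6), Cbx3 (15.2), Pcgf6 (9.47) and Ring1 (2.23). Of the neighbours in this order, Rnf2 and L3mbtl2 overlapped between libraries, as did E2f6 and Cbx3. In NRRA, Rnf2 (27.4 CPM per kb) stood above Mga (24.0), L3mbtl2 (16.1) and Max (13.9), and Cbx3 (13.7) stood above E2f6 (9.25). Pcgf6 (6.32 CPM per kb) and Ring1 (3.83) remained the lowest. Rnf2 made up 7.18% of the summed level of the 10 members in Veh and 11.4% in NRRA, whereas Max went from 8.26% to 5.76% and E2f6 from 6.15% to 3.83%.

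The PCGF paralogs compete for the same RING1 proteins, and their balance differed between the groups. Pcgf6 held 12.1 and 11.9% of the summed PCGF level per kb in Veh and 8.11 and 7.91% in NRRA. The sum itself was 78.9 CPM per kb in Veh and 79.0 in NRRA. Pcgf1, of the PRC1.1 complex, rose from 9.10 and 8.66 CPM to 12.5 and 13.8 CPM (log2 fold change 0.57, edgeR adjusted p = 5.77e-05), and Pcgf5, of PRC1.5, rose from 65.4 and 65.8 to 104 and 105 CPM (0.68, adjusted p = 1.22e-13). Bmi1 (PCGF4), of canonical PRC1, fell from 51.4 and 52.8 to 42.1 and 42.6 CPM (-0.30, adjusted p = 2.35e-05). In Pcgf1 and Bmi1, 83.2% and 73.9% of the longest transcript is nearly identical to other annotated genes, so their counts are uncertain. Pcgf2 (0.036, adjusted p = 0.467) and Pcgf3 (-0.054, adjusted p = 0.154) were not called. For these 2 genes the sign turned in 1 alternative each, Pcgf2 without NRRA replicate 2 and Pcgf3 with library size only, and Pcgf2 was called higher with library size only.

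Over the 21 other PRC1 subunits, 10 rose, 6 fell and 5 were not called, with a median log2 fold change of 0.09, beside 27.9% of all tested genes higher and 28.4% lower. Bcor, the corepressor of PRC1.1, fell most, from 96.5 and 96.7 CPM to 28.3 and 27.3 CPM (-1.79, edgeR adjusted p = 8.84e-21). Scmh1, a partner of canonical PRC1, fell by 0.72 on the log2 scale (adjusted p = 3.94e-15). The fall of Pcgf6 was therefore not shared by all PCGF genes, and the largest fall in PRC1 lay outside PRC1.6.

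Of 8 genes for proteins that associate with PRC1.6, 7 were higher and 1 was lower, with a median of 0.19, beside 27.9% of all tested genes higher and 28.4% lower. The lower call (Ehmt2) was lost with library size only, with no filter, with DESeq2 and without NRRA replicate 1, each of which left 0 lower. Yaf2 and Rybp, paralogs that stimulate the RING1 ligases and occupy the same place in PRC1, went from 29.9 and 26.5 to 37.5 and 38.9 CPM and from 41.1 and 44.4 to 49.1 and 53.5 CPM. Their log2 fold changes were 0.44 (edgeR adjusted p = 2.80e-06) and 0.26 (adjusted p = 3.59e-04). Ehmt1 (GLP), an H3K9 methyltransferase, rose from 154 and 161 to 182 and 186 CPM (0.22, adjusted p = 1.54e-06). Tfdp2, the other DP protein, rose from 63.7 and 64.3 to 72.8 and 72.7 CPM (0.19, adjusted p = 8.16e-04), and its share of the summed DP level per kb went from 7.33 to 8.73%.

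E2f6 fell by more than any of the other E2F genes listed. Of the 7 other E2F family genes, 4 rose, 1 fell and 2 were not called, with a median of 0.12 and a range of -0.32 to 0.36, beside 56.4% of all tested genes called. Only 2 of these genes were called higher with DESeq2, without Veh replicate 2 or without NRRA replicate 1. E2f5, a repressor that binds pocket proteins, rose most (0.36, edgeR adjusted p = 1.08e-04), E2f7, an atypical repressor, rose by 0.22 (adjusted p = 8.23e-04), and E2f3, a cell cycle activator, fell by 0.32 (adjusted p = 1.52e-06). E2f6 made up 12.7% of the summed E2F level per kb in Veh and 7.71% in NRRA, while the sum was 123 and 120 CPM per kb. No test of the difference between E2f6 and its paralogs was made.

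MAX pairs with MYC proteins, which activate, and with MGA, MXD proteins and MNT, which repress, so the partner genes set the pool in which MGA competes. Mycn, the MYC gene most expressed in these cultures, fell from 104 and 100 CPM to 13.4 and 13.7 CPM (log2 fold change -2.91, edgeR adjusted p = 5.40e-24). Myc fell from 13.1 and 16.0 to 8.13 and 8.10 CPM (-0.84, adjusted p = 3.91e-07). Mxd1, a repressive partner, rose from 8.25 and 9.47 to 19.8 and 20.4 CPM (1.18, adjusted p = 6.71e-11). Of the 9 genes in this list, which also holds the MAX relative Mlx, 3 rose, 2 fell and 4 were not called, with a median of -0.018, beside 56.4% of all tested genes called. Mycn held 26.0% of the summed level per kb of these genes and Mga in Veh and 4.29% in NRRA. Mlx held 14.4% of this sum in Veh and 17.6% in NRRA, so it is not a sum of MAX partners alone. Mga went from 20.1 and 20.7% to 24.7 and 25.2% while its own level was not called, since the sum was 119 CPM per kb in Veh and 96.1 in NRRA.

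**Figure D3:**
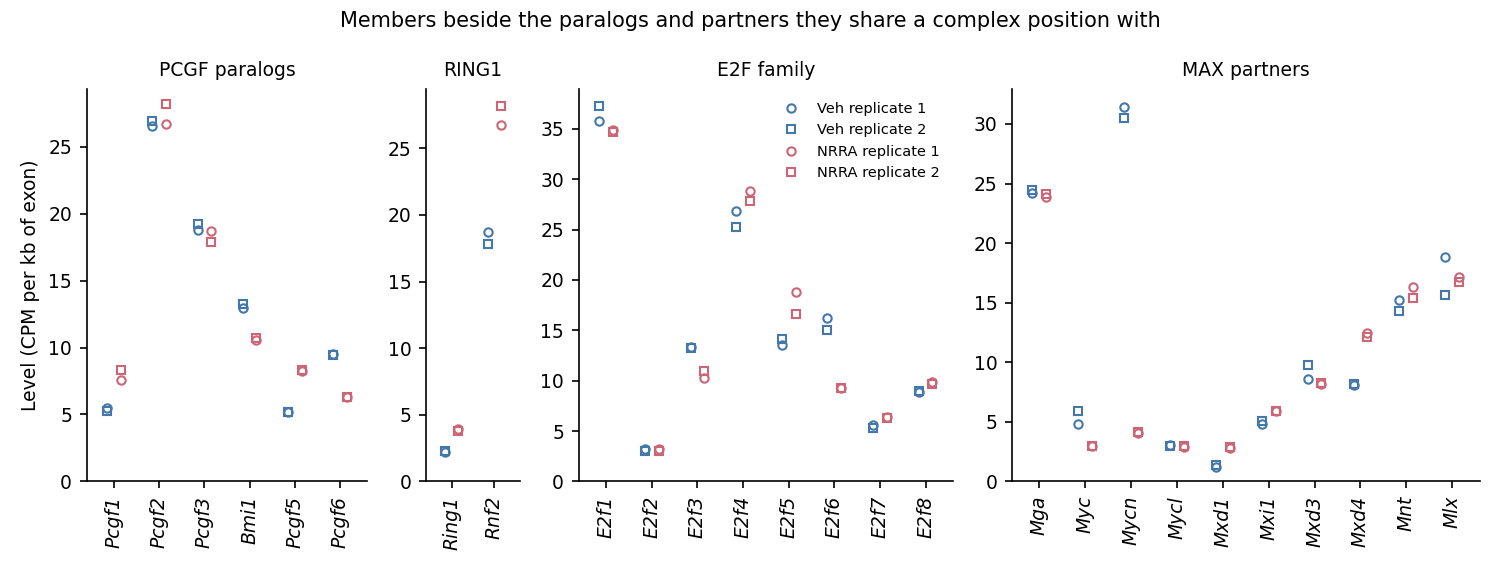
Levels of members and their paralogs or partners, as CPM per kb of exon, with 1 symbol per library. Pcgf6 and E2f6 drop while Pcgf1, Pcgf5 and E2f5 rise, both ligase genes rise, and Mycn drops from the highest level among the MAX partners to a low one while Mga holds.

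The readers and the WDR5 partners were mixed. Cbx5 and Cbx1 encode the other HP1 proteins: Cbx5 fell from 320 and 329 to 264 and 273 CPM (-0.27, edgeR adjusted p = 4.01e-09), and Cbx1 rose from 92.9 and 91.8 to 105 and 98.8 CPM (0.14, adjusted p = 0.00378), a call lost without NRRA replicate 1. Cbx3 kept 20.8 and 20.3% of the summed HP1 level per kb. Among the relatives of L3mbtl2, Sfmbt2 fell from 340 and 331 to 184 and 181 CPM (-0.88, adjusted p = 2.84e-19) and Sfmbt1 rose by 0.22 (adjusted p = 3.53e-05). The 8 HP1 and MBT genes gave 2 higher, 2 lower and 4 not called, beside 56.4% of all tested genes called, with a median of -0.048, and 1 was higher without NRRA replicate 1. Of 9 methyltransferase genes and partners that share WDR5, 5 fell, 1 rose and 3 were not called, with a median of -0.11, beside the same 56.4%. The count of lower genes was 3 with DESeq2, with library size only or without NRRA replicate 1, and that of higher genes was 3 with library size only and 2 without Veh replicate 2. Kmt2c (-0.73, adjusted p = 4.27e-18), Setd1b (-0.48, adjusted p = 2.15e-09) and Kmt2d (-0.38, adjusted p = 3.11e-13), all H3K4 methyltransferases, fell most.

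PRC2 places H3K27 methylation and the H2A deubiquitinases remove the mark that PRC1 sets. Of 13 PRC2 genes, 6 rose, 5 fell and 2 were not called (median -0.014), beside 56.4% of all tested genes called. The count of higher genes was 3 with DESeq2 or without NRRA replicate 2, and 4 without any other library. Jarid2, which joins PRC2 to chromatin carrying ubiquitinated H2A, fell from 297 and 306 to 168 and 162 CPM (-0.87, edgeR adjusted p = 1.19e-18). The accessory subunit Phf19 fell by 0.80 (adjusted p = 9.98e-07), and its relative Phf1 rose by 0.81 (adjusted p = 2.44e-13), though 39.3% of the Phf1 exons overlap a gene on the opposite strand. Of 6 deubiquitinase genes, 4 rose, 1 fell and 1 was not called (median 0.14), beside the same 56.4% of all tested genes called. Asxl3, a cofactor of BAP1, rose from 8.51 and 7.82 to 17.4 and 15.9 CPM (1.03, adjusted p = 3.06e-09), the deubiquitinase Mysm1 rose by 0.38 (adjusted p = 6.24e-09), and Asxl1 fell by 0.20 (adjusted p = 3.40e-06).

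**Figure D4:**
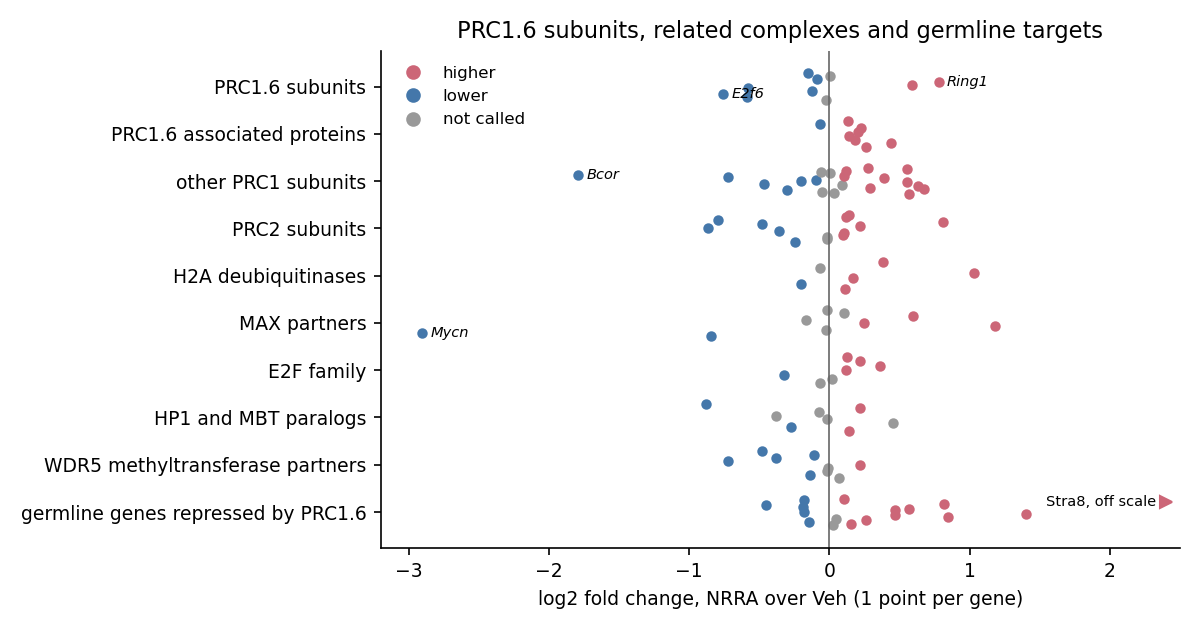
Change of every gene in the subunit list and in each related list, with the log2 fold change of NRRA over Veh on the horizontal axis and 1 point per gene. The subunits lie between -0.76 and 0.78, Bcor and Mycn are the lowest points, and Stra8 lies off the scale at 7.56.

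Genes that PRC1.6 is known to silence did not move together. Of 17 germline genes in this list, 10 were higher in NRRA, 5 lower and 2 not called, with a median log2 fold change of 0.16. The median is set beside 0.0003 for all tested genes and 56.4% called. All 17 were already expressed in Veh, where the lowest library value was 9.61 CPM (Stra8) and the highest 787 CPM (Tuba3a).

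The largest increases after Stra8 were those of Sycp3, Stag3 and Meioc. Sycp3, of the synaptonemal complex, had 27.4 and 27.4 CPM in Veh and 73.7 and 70.9 CPM in NRRA (1.40, edgeR adjusted p = 1.14e-17), although 52.2% of its exons overlap Chpt1 on the other strand. Stag3, a meiotic cohesin subunit, had 281 and 282 CPM in Veh and 504 and 507 CPM in NRRA (0.84, adjusted p = 4.87e-20). Meioc, which sustains the meiotic programme, had 34.8 and 34.5 CPM in Veh and 62.6 and 59.3 CPM in NRRA (0.82, adjusted p = 9.73e-13). Both NRRA libraries of each of these genes stood far above both Veh libraries.

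Hormad1, a protein of the meiotic chromosome axis, had 14.9 and 14.9 CPM in Veh and 22.5 and 21.6 CPM in NRRA (0.57, edgeR adjusted p = 1.24e-06), with 61.0% of its longest transcript nearly identical to 1 other gene. Smc1b, another meiotic cohesin subunit, rose by 0.46 (127 and 127 to 172 and 179 CPM, adjusted p = 4.29e-12). The testis transcription factor subunit Taf7l rose by 0.47 (adjusted p = 1.66e-12). Tdrkh, a Tudor protein of the piRNA pathway (0.26), the RNA-binding protein gene Dazl (0.16) and Tuba3b (0.11) rose by less, and the Dazl call was lost with DESeq2 (adjusted p = 0.114). Of the Tdrkh exons, 36.7% overlap Oaz3 on the other strand, and 39.6% of its longest transcript is nearly identical to 2 other genes. The increase of Stra8 (7.56, adjusted p = 1.33e-37) was by far the largest in the list.

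The other 7 genes of the list were lower or not called. Tdrd1, a Tudor protein of the piRNA machinery, fell from 181 and 178 to 128 and 134 CPM (-0.45, edgeR adjusted p = 8.73e-12). Stk31 (-0.19), Tuba3a (-0.18), Tex101 (-0.18) and Mael (-0.15) fell by less, and the Mael call was lost with library size only. Ddx4 had 273 and 267 CPM in Veh and 271 and 278 CPM in NRRA (0.023, adjusted p = 0.511), and Slc25a31 had 136 and 136 CPM in Veh and 142 and 139 CPM in NRRA (0.048, adjusted p = 0.237). Neither Ddx4 nor Slc25a31 was called, except that both were higher with library size only. Tuba3a and Tuba3b share most of their sequence (95.6% and 81.5% nearly identical), so their opposite changes are uncertain.

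Genes with these promoter letters occurred among those that rose, fell and were not called. The pair of E-box and E2F core stood in 1 window in 6 of the 17 genes, and of these 3 rose (Stag3, Sycp3 and Hormad1), 1 fell (Mael) and 2 were not called (Ddx4 and Slc25a31). Among the other 11, 7 rose and 4 fell. An E-box stood in 9 genes, of which 4 rose and 3 fell, and an E2F core in 10, of which 6 rose and 2 fell. The Stra8 window held neither motif. These are counts without a test, beside 27.9% of all tested genes higher and 28.4% lower. Of all promoter windows, 7.15% held an E-box, 20.0% an E2F core and 1.99% the pair. Those shares are per window, and the counts here are per gene.

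**Figure D5:**
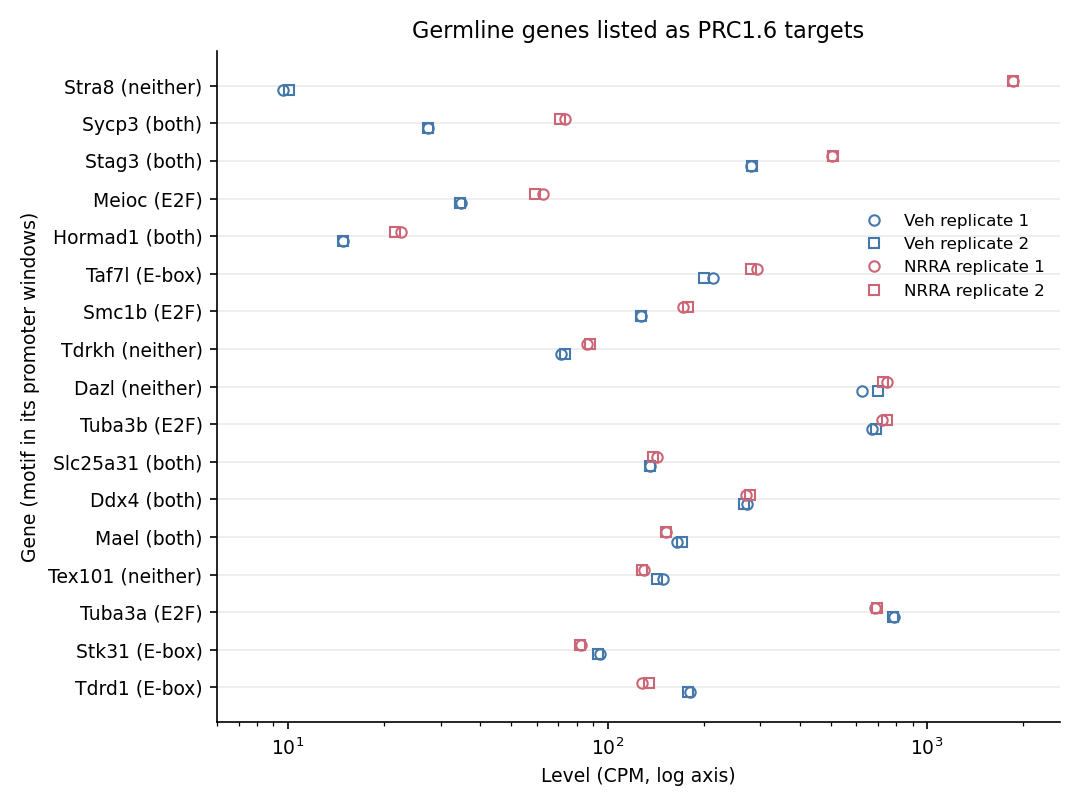
Level of each of the 17 germline genes in each library, as CPM on a log axis, ordered by change, with the motif found in the promoter windows beside each name. Genes with both motifs appear among the risers (Sycp3, Stag3 and Hormad1), in the middle (Slc25a31 and Ddx4) and among those that fell (Mael).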

How the data were processed

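RNA-seq was done on 2 NRRA and 2 Veh libraries. Groups were taken from the sample titles. Per the labels, the libraries were aligned with STAR 2.6.1c and counted with featureCounts 1.6.4 on mm10 (the submitters' processing notes). The study's methods describe stranded mRNA libraries made with a Tecan (NuGEN) Universal Plus kit, while the labels name a TruSeq kit as well. The strand setting of the counting and the annotation release are not given in the sources used here, so reads from a gene and its antisense partner may not be told apart. The authors deposited raw counts per gene, with no normalization. Gene positions, exon lengths and overlaps came from GENCODE M21 (GRCm38), which held 99.7% of the gene IDs. Near identity means a BLAST match of at least 95% over 100 bases to another gene, as a share of the gene's longest transcript.

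Genes were filtered with filterByExpr, scaled by TMM and tested with edgeR 4.0.16 in R 4.3.3 (robust quasi-likelihood F test, all 4 libraries, Benjamini-Hochberg over 20232 genes, threshold 0.05). SEs were derived from the F statistic. With 3 counts as the floor, a level of 0.0920 to 0.111 CPM was the limit of detection, for counting error only. The members and lists were chosen with earlier results of these data known. Named genes were all members, all germline genes, the direct paralogs and partners, and the 3 largest called changes of each other list. Alternatives were other scaling, no filter, DESeq2 1.42.0, no robust estimation, the replicate number as a block, and each library left out.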

Additional observations from a re-analysis of the deposited data

How the results depend on the processing

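Max, E2f6, Pcgf6, Rnf2 and Ring1 kept direction and call under all 10 alternatives. Of 100 member values under alternatives, 88 kept direction and call. With library size only, 4 members were called higher and 3 lower, Mga (0.0678) and Tfdp1 (0.0019) changed sign, Wdr5 was called (0.0921), and L3mbtl2 (-0.0354) and Cbx3 (-0.0603) lost their calls. That scaling raised the median of all genes from 0.0003 to 0.09, and gave 6962 genes higher and 4593 lower against 5654 and 5752. With DESeq2 (4252 higher, 4314 lower), L3mbtl2 (-0.1191) and Tfdp1 (-0.0828) lost their calls. Without 1 library each, L3mbtl2 ranged from -0.1767 to -0.0696, and lost its call without Veh replicate 2 or NRRA replicate 1. Tfdp1 ranged from -0.1177 to -0.0556, and lost it without NRRA replicate 2. Wdr5 ranged from -0.0447 (without Veh replicate 2) to 0.0474, and was -0.0098 without NRRA replicate 2. Pcgf2 ranged from -0.0032 (without NRRA replicate 2) to 0.0797, and Pcgf3 was 0.0354 with library size only. The cause was not tested.

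Of 260 list counts, 237 stayed within 1.5 times. Library size only gave 0 associated proteins lower (the edgeR count was 1, Ehmt2), and 3 WDR5 partners higher and 3 lower. No filter also gave 0 associated proteins lower. DESeq2 gave 0 associated proteins lower, 3 PRC2 and 2 E2F genes higher, 3 WDR5 partners lower and 0 Sertoli and Leydig markers higher. Leaving out 1 library gave 0 to 1 associated proteins lower (0 without NRRA replicate 1), 3 to 4 PRC2 genes higher (3 without NRRA replicate 2), 2 to 3 E2F genes higher (2 without Veh replicate 2 or NRRA replicate 1), 1 to 3 HP1 and MBT genes higher (1 without NRRA replicate 1), 1 to 2 WDR5 partners higher (2 without Veh replicate 2) and 3 to 5 lower (3 without NRRA replicate 1), 0 Sertoli and Leydig markers higher in every case, and 1 to 2 lower (2 without Veh replicate 1). The arm left with 1 library was assumed to vary like the other.

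Replicate numbers were taken from the sample titles, and the Veh count columns carry other numbers (2 and 3), so the numbering itself is uncertain. The title numbers did not pair the libraries (correlation of same-numbered deviations -0.011). With the replicate block, 5772 genes were higher and 5836 lower, and 2 members were higher and 6 lower.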
